A study of Saccharomyces cerevisiae with 74 samples.

Results

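The mRNAs of wild-type budding yeast were compared between cells kept without glucose for 16 min and control cells in glucose medium. The comparison used 5 of the 18 RNA-seq libraries of the series, which holds 74 samples in all. They were chosen by their labels: C and D after glucose withdrawal ("GE" in the labels), and A, B and H as controls. The cells were haploid BY4741, a laboratory strain of mating type **a** with deletions in *HIS3*, *LEU2*, *MET15* and *URA3* that both groups share. Cultures were grown at 30°C, and stressed cells were filtered and moved to a medium in which 2% glycerol and 2% ethanol replaced the 2% glucose. Control cells were filtered at harvest without a second culture, so that transfer to new medium and the loss of glucose cannot be told apart in these libraries. Where heat shock is used for comparison, it stands for 3 wild-type libraries (E, F and I) from cells moved to 42°C for 16 min.

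Budding yeast ferments glucose by preference, and while glucose is present it represses the genes for other carbon sources, for respiration and for storage. Loss of glucose activates the Snf1 kinase, which lifts this repression through the Mig1 repressor and through activators such as Cat8 and Adr1. It also lowers protein kinase A activity, which releases the Msn2 and Msn4 activators of stress genes and closes down the genes for ribosomes. The general rate of translation falls within minutes.

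The RNA of the fission yeast *S. pombe* was added at 2% of the RNA as a spike before poly(A) selection, and its reads set the scale. The scale therefore refers to the amount of RNA extracted and not to the number of cells. Neither fewer cells nor less total RNA per cell would show on it. The 5 libraries held 27077521 to 47528813 counted reads, of which 604215 to 990246 were spike reads. Of these spike reads 44.8% in library D lay on *S. pombe* chromosome III, against 18.6% to 20.3% in A, B, H and C. D also held 15.0% rRNA reads, against 0.446% to 1.22% in these 4 libraries. The rRNA genes of *S. pombe* lie on chromosome III, but the counts do not separate them, and their part in the excess was not tested. Values are therefore given on a scale from all spike reads and, where it matters, on a second scale from chromosomes I and II. The second scale raised the fitted changes by a median of 0.26 on the log2 scale. Libraries A and B were the closest pair of controls, with a median difference of 0.04 (log2, after centring) across mRNAs. H differed from A and B by 0.17 and 0.16, and C differed from D by 0.06. Every pair still differed by more than counting noise, with chi-square per degree of freedom from 2.49 (A and B) upward. The methods describe biological duplicates for each condition, which covers fewer controls than A, B and H, and the labels do not say which cultures were separate. The p-values for single mRNAs measure the spread between libraries, estimated from all RNA-seq libraries of the series together. Those include strains that lack Ski2 or Xrn1, and heat-shocked cells treated with cycloheximide. The exact permutation tests use only A, B, H, C and D. The labels of H belong to a second set of libraries, lettered H to S, which holds no glucose withdrawal library. The strain label was checked against its markers: *LEU2* and *URA3* had at most 1 read in a library. *HIS3*, whose allele in this strain is a partial deletion, had 858 to 4590 reads. The **a**-specific genes *STE2* and *MFA2* had 5851 to 33693 reads in a library, against 9 to 16 for the alpha factor gene *MF(ALPHA)1*. Not all alpha-specific genes were this low. *STE3* had 171 to 267 reads, and *SAG1* had 1001 to 2242, in the range of the **a**-specific *AGA2* (948 to 3259).

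Summed over all mRNAs, RNA after glucose withdrawal was below every control in both C and D on 1 scale, and in C alone on the other. Per spike read the controls held 46.1 (A), 49.3 (B) and 52.4 (H) mRNA reads, a mean of 49.3 ± 3.15 (SD, n = 3). Libraries C and D held 40.8 and 32.5, a mean of 36.6 ± 5.84 (SD, n = 2) and a ratio of 0.744 to the control. Both lay below every control. The exact permutation p of 0.1 (two-sided) is as low as this design can go. On the scale of chromosomes I and II, C stood at 50.4 and D at 59.1, against 57.9, 60.6 and 65.5 in A, B and H. The ratio was then 0.893 (exact permutation test, p = 0.3), and D lay within the range of the controls. Counts in which reads with identical ends were collapsed gave 0.962 (exact permutation test, p = 0.7). Collapsing took a larger part of the mRNA reads than of the spike reads, and unequally between libraries. H, the highest library before, became the lowest, with 19.4 mRNA reads per spike read against 20.6 to 23.9 in the others. The collapsed counts therefore cannot decide the question. Between the spike scales, whether the total of mRNA was lower depended on the scale.

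**Figure D1:**
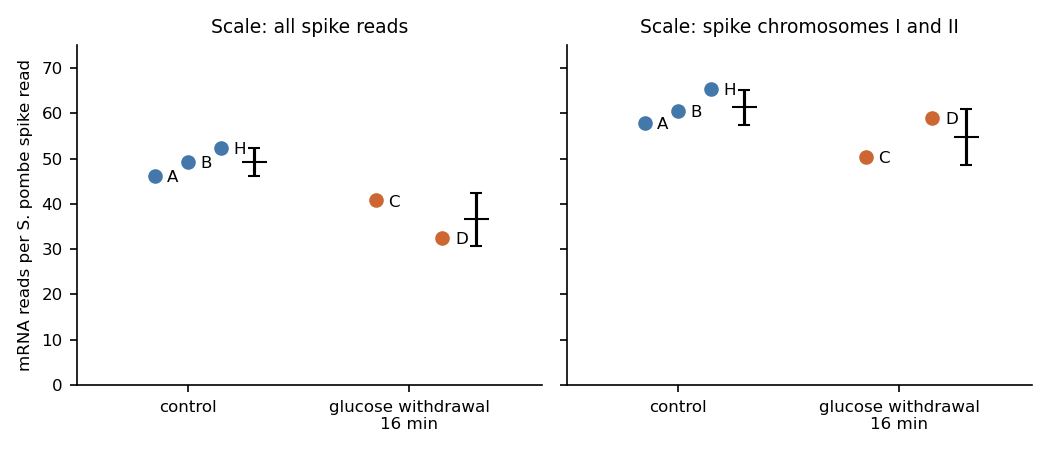
mRNA reads per *S. pombe* spike read in each library (points, labelled by library), with mean and SD (bars), scaled by all spike reads (left) or by those of chromosomes I and II (right). C and D lie below the 3 controls on the left, and D moves from 32.5 to 59.1 on the right.

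Across single mRNAs, 6319 of 6545 listed passed the filter on low counts, and 1160 rose while 2556 fell (edgeR, adjusted p below 0.05). This is 18.4% higher and 40.4% lower, with a median change of -0.26 (log2). On chromosomes I and II, 1739 rose (27.5%) and 1850 fell (29.3%), with a median of 0.00095. Rises thus made up 31.2% of the calls on the main scale and 48.5% on chromosomes I and II. With TMM, which assumes that most mRNAs do not change, 2040 rose and 2150 fell (48.7% of calls higher). Without D 1222 rose and 1768 fell, and without H 1118 rose and 2310 fell. Of the mRNAs that fell on the main scale, 1850 also fell on chromosomes I and II and 705 were not called there. Of those that rose, 1159 rose on both. Large changes were mostly rises. On the main scale 221 mRNAs rose at least 4-fold and 77 fell as much, and 51 rose at least 16-fold while 2 fell as much. On chromosomes I and II the numbers were 283 and 31 at 4-fold, and 63 and 2 at 16-fold.

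The mRNA with the largest rise was *ISF1*, whose overexpression is known to relieve growth defects of mutants in the respiratory Hap activator. It had 68, 74 and 67 spike-scaled reads in A, B and H, and 11603 and 9071 in C and D. Scaled reads are counts set to the mean spike total of the 5 libraries (747463 reads). The change was 7.21 on the log2 scale (standard error 0.22, adjusted p = 3.27e-145), a 148-fold rise. *GAC1*, which targets the Glc7 phosphatase to glycogen synthase, rose from 68 to 84 reads in the controls to 6786 and 4969 (log2 change 6.30, standard error 0.22). *FMP43*, also known as *MPC3*, encodes the subunit of the mitochondrial pyruvate carrier used in respiring cells. It went from 465 to 529 reads to 20556 and 16941 (log2 change 5.22, standard error 0.20). For each of these genes, both withdrawal libraries stood far above the highest control.

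The other leading rises fell into stress genes, genes of carbon use and genes of less known role. *HSP30*, a plasma membrane protein that restrains the proton pump, rose by 6.32 (log2). *BTN2*, which sorts misfolded proteins into deposits, had the highest read counts of these, with 2103 to 2281 reads in the controls and 111963 and 89014 in C and D (log2 change 5.52). *TMA10*, a ribosome-associated protein, rose by 5.21 and *SPG4*, known for survival in stationary phase, from 54 to 123 reads to 8792 and 7115. Among genes of carbon use, *RGI1*, which acts in energy metabolism under respiration, rose by 5.78. *POT1*, the thiolase of fatty acid breakdown, rose by 4.92 and *ADY2*, an acetate transporter, by 4.86. *MGA1*, which resembles heat shock transcription factors, rose by 5.42, and *YMR206W*, *YNL194C*, *YFL052W* and *YKR075C* by 5.44 to 6.24. On chromosomes I and II all 15 rises were larger, between 5.12 (*ADY2*) and 7.47 (*ISF1*).

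Falls were smaller than rises. The largest by rule was *PHO84*, the high-affinity phosphate transporter, whose fitted fall rests on 1 control library. It had 2786 and 2871 scaled reads in A and B, 39342 in H, and 762 and 600 in C and D. With all controls it fell by 4.46 on the log2 scale (standard error 0.28), and without H by 2.05. *SFG1*, a putative regulator of filamentous growth, came next, with 4398, 4697 and 6076 reads in A, B and H and 537 and 500 in C and D (log2 change -3.28, standard error 0.21, adjusted p = 5.02e-47). Several leading falls encode cell cycle proteins. *PCL1*, a cyclin of the Pho85 kinase, had 3813 to 4193 reads in the controls and 598 and 437 in C and D (log2 change -2.95). *CDC6*, which licenses replication origins, changed by -2.74, and *FAR1*, an inhibitor of the cyclin-dependent kinase in the pheromone response, by -2.57. Genes of ribosome making formed a second group: *ALB1* (-2.86), *RPA12* of RNA polymerase I (-2.67), *NOP1*, the methyltransferase of box C/D snoRNPs (-2.64), *RPS28B* (-2.63) and *RPC19*, shared by polymerases I and III (-2.61). *UTR2* and *EXG1*, enzymes of the cell wall, changed by -2.75 and -2.59. *HLR1*, *YGR079W* and *AIR1*, a subunit of the TRAMP complex for nuclear RNA surveillance, changed by -3.01 to -2.74. The smallest of these falls on chromosomes I and II was that of *FAR1*, at -2.29.

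**Figure D2:**
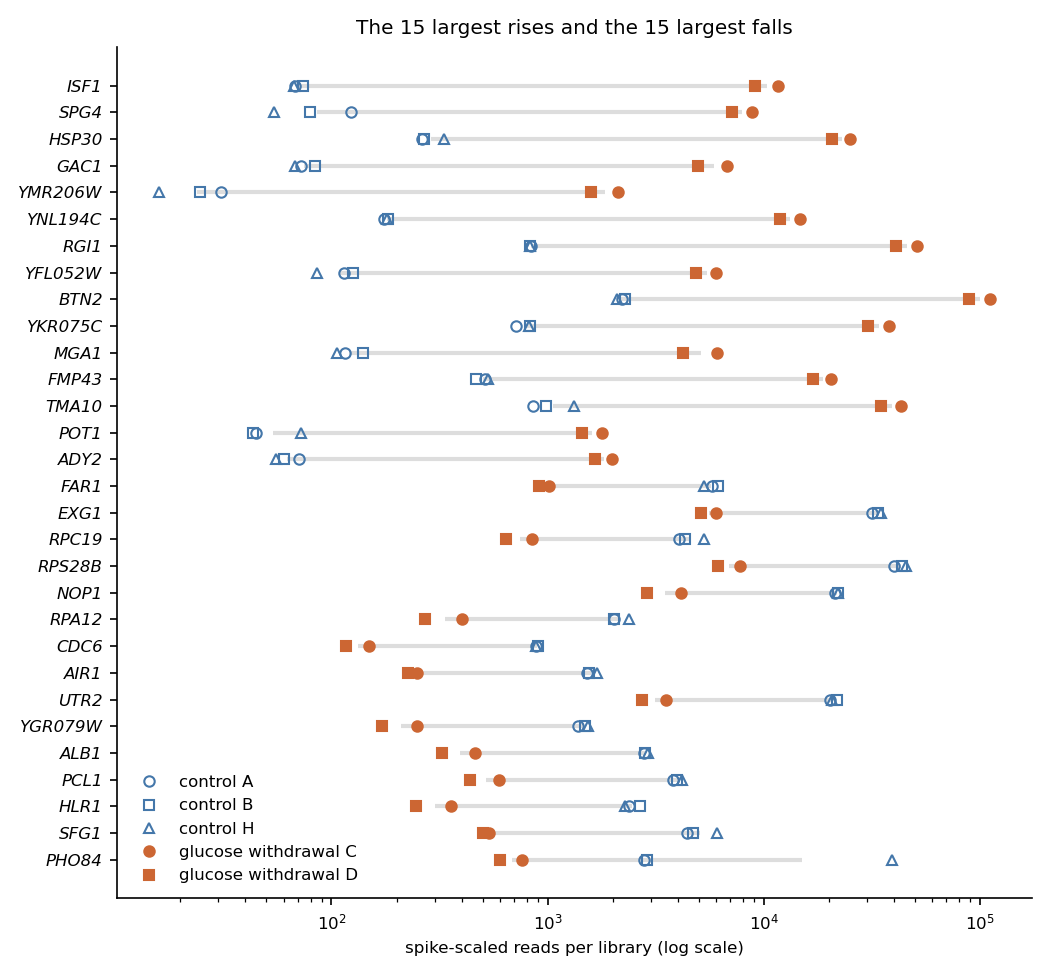
Spike-scaled reads (log axis) of the 15 largest rises (top) and the 15 largest falls (bottom) in each library, all spike reads as the scale; grey lines join group means. C and D are on the same side of A, B and H for each gene, which the rule for naming requires. For *PHO84* control H (39342) stands far above A and B.

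Hexose transporters are the first step of sugar use, and the mRNAs of carriers of high and of low affinity rose. Of 17 measured, 12 rose, none fell and 5 (*HXT8*, *HXT14*, *HXT15*, *HXT16* and *HXT17*) were not called, with a median change of 1.61 against -0.26 over all mRNAs. The high-affinity transporter *HXT4* went from 1688, 1827 and 1178 scaled reads in A, B and H to 38551 and 30951 in C and D (log2 change 4.47, standard error 0.20). *HXT6* and *HXT7* rose by 4.31 and 4.22. They are nearly identical, so their reads could have been split between them, and their values are not independent. *HXT5*, a transporter of slow-growing cells, rose by 3.44 and *HXT2*, of high affinity, by 3.16. *HXT1* and *HXT3*, the low-affinity carriers that high glucose induces, also rose, by 1.54 and 1.85 (these and *HXT2* were named after their values were seen). *HXT1* had 11191, 11554 and 12746 reads in the controls and 41319 and 27411 in C and D.

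Among regulators of glucose repression rises outnumbered falls. Of 30 measured, 17 rose, 3 fell and 10 were not called (median change 0.63). *MTH1*, a corepressor of the hexose transporter genes, had 546 to 555 scaled reads in the controls and 12240 and 8980 in C and D, a change of 4.27 (standard error 0.19). *USV1*, a zinc finger activator of genes for nonfermentable growth, rose by 4.22 and *CAT8*, the activator of gluconeogenic genes, by 4.21. *REG2*, a subunit of the Glc7 phosphatase, rose by 3.20 and *HAP4*, the limiting subunit of the respiratory activator, by 3.01. *ADR1*, the activator of ethanol and fatty acid genes, rose by 2.19. The repressors *MIG1*, *MIG2* and *MIG3* rose too, by 0.90, 1.03 and 1.25. Of the kinase itself, *SNF1* had 0.30 and *SNF4* -0.33, neither called, though *SNF1* was called higher on chromosomes I and II (0.55). The falls were *ELM1* (-0.88) and *RGT2* (-0.73), a kinase upstream of Snf1 and the sensor of high glucose, and *NRG2* (-0.59), which was not called on chromosomes I and II. *SNF3*, the sensor of low glucose, rose by 1.85.

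Genes for the use of other sugars rose, in a medium that held none of these sugars. Of 14, 11 rose and 1 fell, the repressor gene *GAL80* (-0.43, not called on chromosomes I and II), with a median change of 2.18. *MAL31*, a maltose permease, had 636 to 737 reads in the controls and 9911 and 7824 in C and D (log2 change 3.66). *MAL32* and *MAL12*, near-identical maltase genes that share reads, rose by 3.97 and 3.74, and the regulator *MAL33* by 3.27. *SUC2*, which encodes invertase, went from 1904 to 2281 reads to 14378 and 11951 (log2 change 2.63).

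Within glycolysis and fermentation the isoforms of an enzyme moved apart. Of 23, 6 rose and 12 fell, with a median of -0.50, and on chromosomes I and II 7 rose and 5 fell. The rises were *HXK1* (3.37) and *GLK1* (2.05) for sugar phosphorylation, *PYK2* (2.25), *TDH1* (1.36), *ENO1* (1.31) and *PDC6* (0.69, with D within the range of the controls). *HXK1*, *PYK2* and *TDH1* are minor isoforms in glucose-grown cells. *HXK1* had 8092, 8708 and 10402 reads in the controls and 104130 and 83899 in C and D. *HXK2*, the main hexokinase in glucose, changed by 0.38 and was called on chromosomes I and II only (0.64). Among the falls, *PGI1* (-0.96), *PDC1* (-0.91), *TPI1* (-0.85), *ENO2* (-0.82) and *PDC5* (-0.69) were also called on chromosomes I and II. *PDC1* had 395366 to 412313 reads in the controls and 247399 and 178822 in C and D. *TDH3* (-0.52), *FBA1* (-0.70), *CDC19* (-0.65) and *ADH1* (-0.60) fell on the main scale only.

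For the use of ethanol and glycerol, 9 of 13 genes rose and 2 fell, with a median of 1.31. Beside *FMP43* and *ADY2*, the lactate and pyruvate permease *JEN1* rose from 130 to 176 reads to 3170 and 2659 (log2 change 4.31). *ALD4*, the mitochondrial aldehyde dehydrogenase, had 8396 to 8665 reads in the controls and 66321 and 48903 in C and D (log2 change 2.76). *GUT1* and *GUT2*, which bring glycerol into glycolysis, rose by 1.24 and 1.31. *ADH2*, the alcohol dehydrogenase that oxidizes ethanol, did not rise. It had 13658, 14799 and 18082 reads in A, B and H and 11850 and 9231 in C and D, a change of -0.56 (adjusted p = 0.011), or -0.30 on chromosomes I and II (adjusted p = 0.169). The other fall was *DLD3*, a lactate dehydrogenase (-0.61), also not called there.

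In gluconeogenesis and the glyoxylate cycle the rises were led by genes for the handling of acetyl groups. Of 17, 9 rose, none fell and 8 were not called, with a median of 0.69. The largest rises were *ACS1*, acetyl-CoA synthetase (3.00), the acetyl-carnitine shuttle genes *CRC1* (2.94) and *CAT2* (2.14), and *CIT2*, peroxisomal citrate synthase (2.09). The enzymes specific to the pathways moved less. *ICL1*, isocitrate lyase, had 747 to 829 reads in the controls and 2433 and 2046 in C and D (log2 change 1.52). *PCK1*, the enzyme of the first committed step, had 157 to 192 and then 330 and 264 (log2 change 0.82). *FBP1*, fructose-1,6-bisphosphatase, had 12 to 24 reads in the controls and 32 and 24 in C and D, and *MLS1*, malate synthase, 50 to 66 and then 86 and 45. Neither *FBP1* (log2 change 0.69, adjusted p = 0.136) nor *MLS1* (0.18, adjusted p = 0.634) was called on the main scale, and *FBP1* was called on chromosomes I and II (adjusted p = 0.0357).

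Mitochondrial metabolism showed no common direction at 16 min. In the tricarboxylic acid cycle 6 of 23 rose and 9 fell (median -0.03), and on chromosomes I and II 10 rose and 3 fell (median 0.24), a change of sign. *CIT3*, a mitochondrial citrate and methylcitrate synthase, rose by 3.11 and *SDH1*, of succinate dehydrogenase, by 1.33, whereas *ACO1*, of mitochondrial aconitase, fell by 1.30. In the respiratory chain and ATP synthase 24 of 38 were not called (6 rose, 8 fell, median -0.15, and 0.12 on chromosomes I and II). The stress isoform of cytochrome c, *CYC7*, rose from 337 to 523 reads to 4574 and 3625 (log2 change 3.22), whereas the main isoform *CYC1* fell by 1.14. The NADH dehydrogenases *NDE2* and *NDI1* rose by 2.11 and 1.74. Mitochondrial ribosomal proteins gave 6 higher and 18 lower of 71 (median -0.16), and 20 higher and 8 lower on chromosomes I and II (median 0.09). *MRPS18*, *MRPL39*, *MRPL51* and *IMG1* had the largest falls, -0.89 to -0.78. As shares of mRNA reads all 3 lists were higher in C and D than in each control, for example 0.838% and 0.857% against 0.697% to 0.744% for the tricarboxylic acid cycle (exact permutation test, p = 0.1, the smallest possible).

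Of 20 genes of fatty acid oxidation and the peroxisome 12 rose and 4 fell (median 0.70). *POX1*, the oxidase of the first step, had 54, 58 and 66 reads in A, B and H and 1069 and 901 in C and D (log2 change 4.05). *FOX2*, the second enzyme, rose by 2.04, and the peroxisomal importer genes *PXA1* and *PXA2* by 2.84 and 1.99. The falls were *PEX21* (-0.74), *PEX13* (-0.65), *ANT1* (-0.56) and *PEX11* (-0.44), which act in peroxisome import, transport and division. *ANT1* and *PEX11* were not called on chromosomes I and II.

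Storage carbohydrate genes gave the highest median of the lists, at 2.53, with 19 of 21 higher and 1 lower. The rises took in both synthesis and breakdown. For glycogen synthesis *GSY1* went from 1823, 2046 and 2134 reads to 53168 and 41867 (log2 change 4.57), and the branching enzyme *GLC3* rose by 4.52. *GPH1*, glycogen phosphorylase, rose by 4.02. For trehalose, the synthase genes *TPS1*, *TPS2* and *TSL1* rose by 1.69, 3.10 and 3.10, and the trehalase genes *NTH1*, *NTH2* and *ATH1* by 1.17, 1.62 and 1.51. *PGM1* was the one member that fell (-0.73), whereas *PGM2*, the main phosphoglucomutase, rose by 3.88.

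Of 34 general stress genes 24 rose and 1 fell, the thioredoxin gene *TRX2* (-0.64, not called on chromosomes I and II), with a median of 1.41. *CTT1*, the cytosolic catalase, had 1368, 1504 and 1816 reads in the controls and 25217 and 20450 in C and D (log2 change 3.87). *SPI1*, a cell wall protein, rose by 4.11, the aldehyde dehydrogenase *ALD3* by 3.86 and *MSC1* by 3.32. Among 28 chaperone genes 16 rose and 2 fell, with a median of 0.98. *SSA4*, the inducible Hsp70, went from 3040 to 4348 reads to 78960 and 61464 (log2 change 4.29), and the small heat shock protein *HSP42* rose by 4.27. The pair that fell, *SSB1* and *SSB2* (both -1.30), are near-identical Hsp70s that act on nascent chains at the ribosome and share reads. Of 29 genes of autophagy and the vacuole 15 rose and 1 fell (*CPS1*, -0.59, not called on chromosomes I and II). *YLR312C* (*ATG39*), a receptor for autophagy of the nucleus, rose by 3.33, and *ATG8* and *ATG7*, of the core machinery, by 1.62 and 1.45. *ATG14* had 321 to 410 reads in the controls and 1190 and 998 in C and D.

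Genes of growth moved the other way and with little spread. All 137 cytoplasmic ribosomal protein mRNAs fell on both scales and with TMM, with a median of -1.41 and quartiles of -1.57 and -1.24. On chromosomes I and II the median was -1.16. The smallest fall was 0.75 on the log2 scale and the largest that of *RPS28B*, from 40211, 43528 and 45536 reads in the controls to 7760 and 6129. *RPS9A*, *RPL17B* and *RPS17B* came next (-1.87 to -1.86). Most of these genes have a near-identical copy, so values for single paralogs are uncertain. Of 151 ribosome biogenesis genes 146 fell and none rose (median -1.45), and 144 fell on chromosomes I and II.

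Of 40 translation factors 35 fell and 1 rose (median -1.21). *SUI1*, which encodes the start codon factor eIF1, had the largest fall: 11434, 12628 and 13116 reads in the controls and 3359 and 2679 in C and D (log2 change -2.04). *TEF4* and *NIP1*, an elongation factor and a subunit of eIF3, fell by 1.67 and 1.62, and *TIF1* and *TIF2*, which encode eIF4A and share reads, by 1.37 and 1.38. *TIF3*, the gene for eIF4B, fell by 1.48, and *DED1* changed by -0.41 and was not called. The single rise was *DBP1*, a paralog of Ded1, from 291 to 299 reads to 1103 and 818 (log2 change 1.71).

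Most genes of biosynthesis fell as well. Of 65 genes for amino acids 55 fell and 2 rose (median -1.09), led by *ILV5* of branched-chain synthesis (-2.26), *HIS1* (-1.93), *ILV1* (-1.76) and *HIS7* (-1.71). *ILV5* had 66633 to 71780 reads in the controls and 16122 and 12667 in C and D. Of 24 genes for nucleotides 21 fell and none rose (median -0.83). The large subunit of ribonucleotide reductase, *RNR1*, fell by 2.11 and *URA7*, CTP synthase, by 1.83, followed by *IMD3* (-1.34) and *GUA1* (-1.29). Of 29 genes for lipids and sterols 26 fell and none rose (median -0.93), led by *ERG25* (-1.68), *ERG11* (-1.67) and *ERG1* (-1.53) of ergosterol synthesis. Of 28 cell cycle and histone genes 17 fell and 1 rose, the G1 cyclin gene *CLN3* (0.47). *CLB2*, the mitotic cyclin, had 4309 to 4810 reads and then 926 and 820 (log2 change -2.37), and *CLB6* and *CLN1* fell by 2.09 and 1.76.

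The lists of the proteasome and of mRNA decay lay close to the general shift. Of 33 proteasome genes 18 fell on the main scale but 3 on chromosomes I and II (*PRE6*, *PRE9* and *PRE1*, -0.82 to -0.68 on the main scale). The rise was that of *RPN4*, the activator of proteasome genes, by 1.58. In mRNA decay 11 of 27 fell and 3 rose, *EDC2* (1.59), *EDC1* (0.64) and *DHH1* (0.47), and on chromosomes I and II 6 fell and 5 rose. *LSM1*, *DCP1* and *SCD6*, which act in decapping, changed by -1.08, -0.78 and -0.76, and *XRN1*, the 5′ exonuclease, by -0.44. The **a**-specific genes lay further from it, with a median of -1.19 against -0.26 over all mRNAs. All 6 fell on both scales, *STE2* (-1.58), *MFA1* (-1.32), *BAR1* (-1.27) and *AGA2* (-1.10) the most. Of the 4 alpha-specific genes *SAG1* alone was called (-0.43), on the main scale only.

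**Figure D3:**
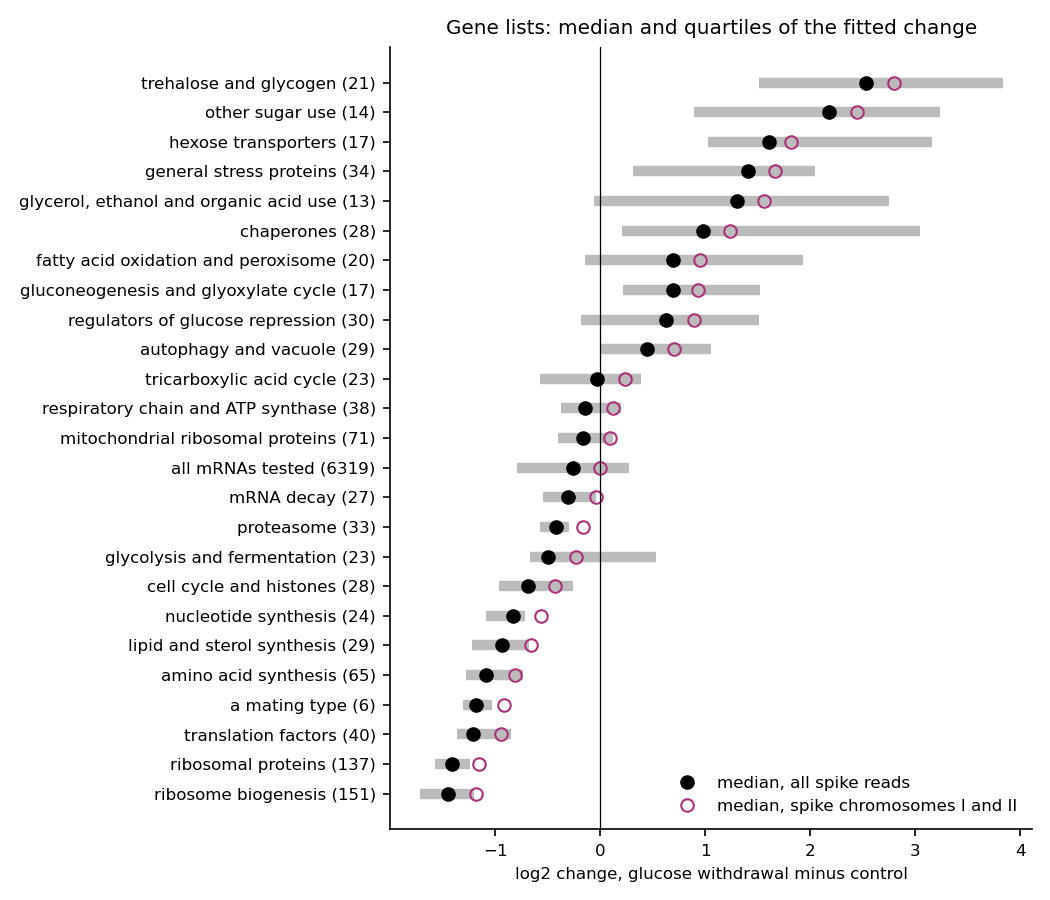
Median (black) and quartiles (grey) of the fitted log2 change over the members of each list, with the number tested in brackets, on all spike reads; open circles give the median on chromosomes I and II. Medians run from -1.45 (ribosome biogenesis) to 2.53 (trehalose and glycogen), and those of the tricarboxylic acid cycle, the respiratory chain and mitochondrial ribosomal proteins change sign between scales.

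The share of a library's mRNA reads that a list takes does not depend on the spike. Ribosomal proteins took 18.2%, 18.3% and 20.5% of mRNA reads in A, B and H, and 10.3% in both C and D. Ribosome biogenesis went from 2.52% ± 0.065 (SD, n = 3) to 1.21% ± 0.0094 (SD, n = 2). Chaperones took 2.11% ± 0.145 and 5.74% ± 0.082. The 17 hexose transporters went from 0.151% to 0.175% in the controls to 2.10% in C and D, and storage carbohydrates from 0.277% ± 0.00195 to 2.24% ± 0.061. In each of these lists C and D lay outside the range of the controls (exact permutation test, p = 0.1, the smallest possible). Glycolysis and fermentation was level, with 9.09% to 9.70% in the controls and 9.34% and 9.14% in C and D. In each of these lists the shares of C and D were close to each other, whereas their totals per spike read were 40.8 and 32.5.

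**Figure D4:**
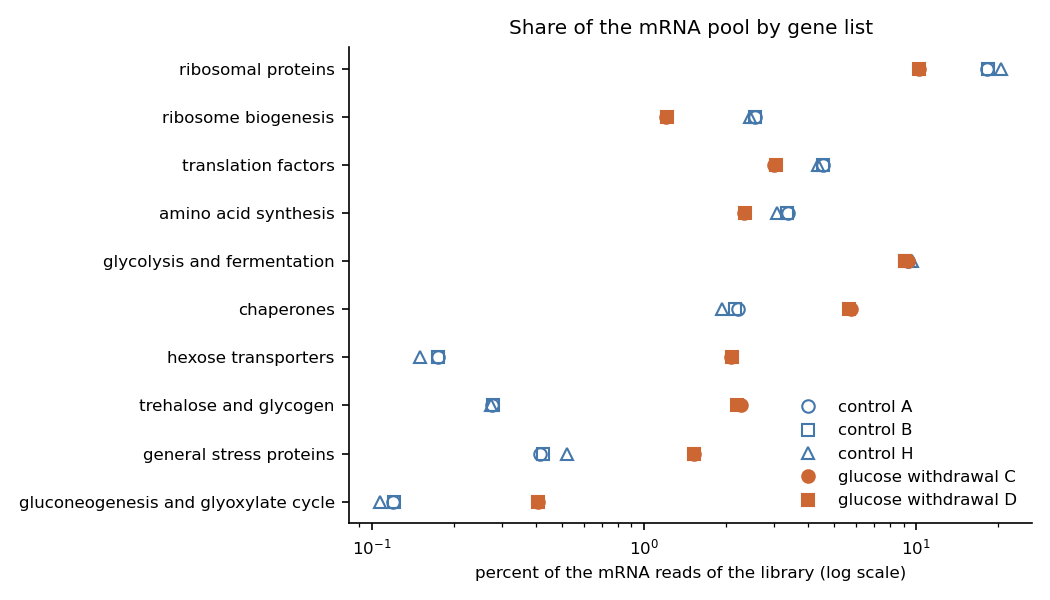
Percent of the mRNA reads of each library (log axis) on the genes of 10 lists, for controls (blue, open) and glucose withdrawal (orange, filled). C and D overlap in each list, and lie apart from the controls except in glycolysis and fermentation.

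Heat shock at 42°C was compared directly with glucose withdrawal, in a contrast that leaves out the controls although they share the fit and its estimate of spread. The 3 heat shock libraries had 34.8 to 40.8 mRNA reads per spike read. Of 6319 mRNAs 3686 (58.3%) were higher after glucose withdrawal and 721 (11.4%) lower. With TMM, which removes the difference in total, the split was 2087 higher and 2210 lower. Against the control, which both stresses share, the median change was -0.77 after heat shock and -0.26 after glucose withdrawal. Growth genes fell further after heat shock. The ribosomal protein median was -3.70 there against -1.41 without glucose, and 135 of 137 were higher after glucose withdrawal in the direct test (133 with TMM). For ribosome biogenesis it was 146 of 151 (139 with TMM). Protective genes stood higher in heat. Of 28 chaperones 26 were lower after glucose withdrawal and 2 higher (*SSB1* and *SSB2*), and of 34 general stress genes 31 were lower. *SSA4* had 876971 to 1350540 scaled reads after heat shock and 61464 to 78960 without glucose, a difference of -3.94 (standard error 0.26). The counts for chaperones with TMM were the same, 26 and 2.

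Of 6319 mRNAs, a set of 146 rose without glucose and fell in heat on both spike scales with the direct test also passed, whereas 6 did the reverse. On all spike reads alone the numbers were 147 and 19. On that scale 3999 mRNAs were called lower in heat and 1097 higher. The sets were not counted with TMM, so whether their balance holds without the spike was not tested. The uncharacterized gene *YKR075C* led the first set. It had 716, 829 and 824 scaled reads in the controls, 38074 and 30392 in C and D, and 182, 139 and 142 in E, F and I (direct difference 7.79, standard error 0.23, adjusted p = 3.42e-155). *HXT4* and *MTH1* differed by 5.11 and 5.04. *HXT3* and *HXT1* had 2675 to 3008 and 1300 to 1753 reads after heat shock, differences of 4.65 and 4.57. The next in order were *YIG1* (4.49), known for a role in glycerol synthesis in anaerobic cells, *HXT2* (4.07), *MAL33* (3.77), *HAP4* (3.73) and *SUC2* (3.63). The transporter *HXT5* went the other way in size, since it rose in both stresses and more in heat, to 30048 to 49208 reads (direct difference -3.30). Among the leading rises, *YNL194C* and *RGI1* did not differ detectably between the stresses (-0.03 and -0.09, standard error 0.21 for *RGI1*), and *HSP30* was higher in heat (-2.94). The reverse set was *BUB1*, a mitotic checkpoint kinase (-2.07), *TRX3*, *ADD37*, *PST1*, *UPS2* and *ERV29* (named because they were few). Their heat shock libraries were not all above the controls. *BUB1* had 868 reads in F, below every control (1209 to 1345), and *PST1* had 6337 in I, within the range of the controls (5845 to 7712).

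**Figure D5:**
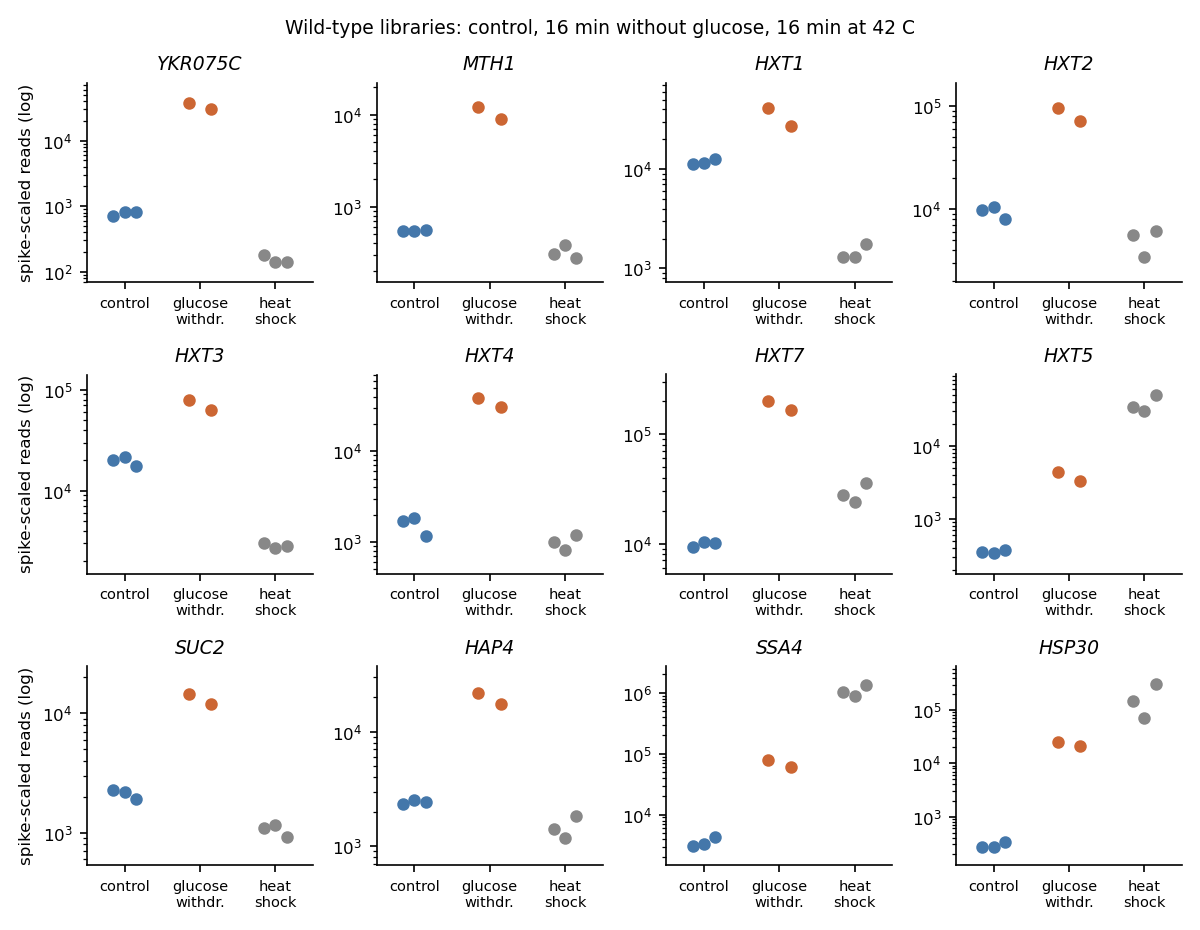
Spike-scaled reads (log axes that differ between panels) of 12 genes in each wild-type library: control (A, B and H), glucose withdrawal (C and D) and heat shock (E, F and I). *YKR075C*, *MTH1*, *HXT1* to *HXT4*, *SUC2* and *HAP4* are highest without glucose, with a heat shock mean below the control mean. *HXT7* rises in both stresses, and *HXT5*, *SSA4* and *HSP30* are highest in heat.

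A second readout of the same stress was the binding of the initiation factor eIF4B, measured by CRAC, in which RNA crosslinked to a tagged protein is sequenced. There were 4 control libraries (544510 to 1997059 counted reads) and 3 libraries after 16 min without glucose (587625 to 1276500). Binding is in RPM, reads per 1000000 counted reads of the library. It follows the amount of an mRNA, the binding per mRNA and also the reads on other RNAs in the library. For example, tRNA took 312434 of 1530117 counted reads in control library 21 and 806045 of 1276500 in withdrawal library 22. Of 5555 mRNAs tested, 44 were higher (0.792%) and 973 lower (17.5%), with a median of -1.75 (log2). Among the 15 largest rises in mRNA, 14 could be tested, and 9 were higher in binding and none lower, with a median of 4.49. Some of them had too few control reads to be called lower. *SPG4*, for example, had 0, 0, 1 and 0 reads in the controls and 53, 23 and 24 without glucose. Such an mRNA does not pass the filter through the controls, so the absence of falls and the median are partly fixed by the selection. *TMA10* had 1.84, 23.5, 2.29 and 19.0 RPM in the controls and 560, 566 and 577 without glucose (log2 change 5.48, standard error 0.67, adjusted p = 5.57e-08). *BTN2* had 3.67 to 66.0 RPM in the controls and 408 to 809 without glucose (log2 change 4.66), and *HSP30* rose by 5.49. *YFL052W*, at 0.27, did not pass the test. Of the 15 largest falls 4 were lower and none higher, with a median of -2.08 against -1.75 over all mRNAs. Of 137 ribosomal protein mRNAs 124 were lower in binding and none higher, with a median of -2.61. When RPM were replaced by shares of mRNA reads, 11 of the 14 rises were higher and none of the 15 falls was lower. Of the ribosomal protein mRNAs 18 were then lower and none higher, with a median of -0.96. Over all mRNAs 106 were higher and 64 lower on this scale, with a median of -0.088 in place of -1.75.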

How the data were processed

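RNA was poly(A)-selected and sequenced as stranded single 75 nt reads. Reads were mapped by the authors, using Novoalign, to an intronless *S. cerevisiae* genome joined with that of *S. pombe*. The authors deposited raw counts per feature on the strand opposite to the read. Random placement of reads with several positions is stated for CRAC only. The coordinates of the build were not used, and locus names were looked up in RefSeq R64. Features named only by a number, at most 0.0088% of reads, were left out. eIF4B CRAC counts were deposited per feature after collapsing of PCR duplicates.

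mRNA counts of all 18 RNA-seq libraries were fitted with edgeR 4.0.16 (R 4.3.3): filterByExpr (minimum count 10, total 15), summed spike reads as library size, quasi-likelihood test, Benjamini-Hochberg adjusted p below 0.05. Standard errors are the change divided by the root of F. Single values of each library were tested by exact permutation (two-sided). With 2 against 3 libraries no p can be below 0.1. DESeq2 1.42.0 and the other alternatives are listed with their effects at the end. On simulated data (6301 mRNAs in the fit), 40% of 1.5-fold, 84% of 2-fold and 100% of 4-fold changes were called, and 0.197% of unchanged mRNAs. Unchanged mRNAs had a median error of -0.00712 (log2) there, whereas the 2 spike scales differ by a median of 0.26. These rates therefore do not cover an error of the scale.

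Named were the 15 largest rises and 15 largest falls called without overlap, called on both scales, with a mean of at least 500 scaled reads in the higher group; in each of 26 lists the 4 called members without overlap that changed most; members counted among 5 or fewer; and strain markers. Further members were named after their values were seen. The genes, lists and tests were chosen with earlier results of these data known, and the lists come from general knowledge. *MET17* (*MET15*) and *FAA2* were not found by name. No promoter or protein sequence was used here. An item covered by the rule is not reported here.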

Additional observations from a re-analysis of the deposited data

Results flagged for a closer look

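The following mRNAs moved in opposite directions after glucose withdrawal and after heat shock, by the direct test of the difference (edgeR, adjusted over 6319 mRNAs). They are the 5 with the largest difference among those that rose without glucose and fell in heat, and the first of those that did the reverse. Each difference is glucose withdrawal minus heat shock on the log2 scale. *YKR075C* differed by 7.79, *HXT4* by 5.11, *MTH1* by 5.04, *HXT3* by 4.65 and *HXT1* by 4.57, each with both withdrawal libraries above every control library and the 3 heat shock libraries below the control mean. *BUB1* differed by -2.07, with 522 and 415 scaled reads in C and D, 1209 to 1345 in the controls and 1739, 868 and 3320 in E, F and I, so that the heat shock libraries lay on both sides of the controls.

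Reads on 3 RNA classes other than mRNA (SUTs, CUTs and snoRNAs) were higher per spike read without glucose. SUTs, stable unannotated transcripts, rose to 1.44 times the control, from 189, 205 and 210 to 323 and 258 reads per 1000 spike reads (A, B, H, then C and D). CUTs, unstable transcripts that the nuclear exosome degrades, stood at 1.20 times the control, with 62.6, 64.6 and 62.7 against 84.7 and 67.3. On chromosomes I and II the ratios were 1.73 and 1.44. Reads on snoRNA genes stood at 2.61 times the control, with 10.8, 11.4 and 9.78 against 21.9 and 33.7. In each class C and D exceeded all controls (exact permutation test, p = 0.1, the smallest possible).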

How the results depend on the processing

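The scale decided the balance of calls. Beside 1160 higher and 2556 lower mRNAs, TMM gave 2040 higher and DESeq2 with its own size factors 1910, and with 1 library left out in turn the rises numbered 770 (without C) to 1222 (without D), the falls 1768 to 2697, the median change -0.44 to -0.12 and the ratio of total mRNA 0.660 to 0.827. On chromosomes I and II without C, an alternative chosen after seeing the data, 1189 fell. The median change of -0.26 became 0.00095 on chromosomes I and II, 0.0064 with TMM, -0.032 with DESeq2's own size factors, and 0.11 on chromosomes I and II without C. The ratio of total mRNA, 0.744, became 0.893 on chromosomes I and II, and with collapsed reads, also chosen after seeing the data, 0.962 and on chromosomes I and II 1.04. Collapsing took a larger part of mRNA reads than of spike reads, so its ratios are not comparable with the others. Against heat shock, TMM gave 2087 higher and 2210 lower in place of 3686 and 721. For eIF4B, scaling to mRNA reads gave 106 higher and 64 lower in place of 44 and 973. The cause of these differences was not tested beyond what each scale sets by construction. The filter, the 5000 most abundant mRNAs, the fit of the 5 libraries alone, DESeq2 with the spike, and a term for the series (A to F, H to S) kept all counts within 1.5 times.

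*SPL2* (-1.14) reversed to 0.89 with the series term and to 1.28 without H (range -1.66 to 1.28 with 1 library left out). *PHO5*, *PHO12* and *VTC3* lost their calls without H. Of the 30 largest changes none lost its call or direction in any setting that tested it. A call on both spike scales and no overlap between groups were conditions for naming them. Chromosomes I and II therefore add no test of these 30. Among the 121 genes named by rule, *SAG1* lost its call under TMM, DESeq2's own size factors, chromosomes I and II, and without A, B or D, and *PRE1* without D. With collapsed reads *PRE1*, *PRE9* and *SAG1* lost it, and on chromosomes I and II without C 11 genes did. The list medians of the tricarboxylic acid cycle, the respiratory chain, mitochondrial ribosomal proteins and alpha-specific genes changed sign on chromosomes I and II, with TMM and with DESeq2's own size factors. Without D, those of the tricarboxylic acid cycle and the alpha-specific genes did, and on chromosomes I and II without C that of mRNA decay did too. No paired analysis was possible because the libraries carry letters and no numbers shared between groups. At this depth 1.5-fold changes are often missed, as the simulation shows.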

Other observations

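Box H/ACA snoRNAs were among the snoRNAs that were high in both withdrawal libraries. *snR37* had 267, 250 and 174 scaled reads in A, B and H and 978 and 2036 in C and D. *snR11* had 139 to 163 in the controls and 981 and 1203 in C and D, and *snR30* 396 to 434 and then 1976 and 2784. After heat shock *snR11* had 50 to 129 reads and *snR37* 32 to 117, while *snR30* had 243 to 1611. *snR17a*, the U3 snoRNA, and *snR190* were high in D alone, with 2260 and 1126 reads against 109 and 36 in C, and D is also the library with 15.0% rRNA reads. Since poly(A) RNA was selected, these values refer to the part of each snoRNA that entered such a library.

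Among SUTs with at least 100 scaled reads in either group, 271 of 506 lay above all controls in both C and D and 94 below. By the same rule 68 of 117 CUTs lay above and 34 below. With 10 possible splits of 2 against 3 libraries, some features take either order by chance, and these counts were not tested against this. The cutoff also admits features through the group in which they are high. The same share over mRNAs is not given here, so the counts do not set SUTs apart from mRNAs. ST2561 had 8.3, 9.9 and 1.1 scaled reads in A, B and H, 1182 and 907 in C and D, and 15.1 to 59.4 after heat shock. ST0680 had 40 to 50.7 in the controls, 2105 and 1680 in C and D and 41.5 to 77 after heat shock. The genes beside them were not looked up.

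Control library H stood apart from A and B in genes of phosphate supply. It was more than 2-fold above their mean in 17 mRNAs and more than 2-fold below in 3 (20 reads added). *SPL2* had 130 and 167 reads in A and B and 2095 in H, *PHO12* 993 and 1048 against 5447, *PHO5* 830 and 845 against 3098, and *VTC3*, of polyphosphate synthesis, 4920 and 5219 against 22934. In C and D these genes had 407 and 310, 914 and 736, 767 and 641, and 4700 and 3771 reads. Called lower with all controls (-1.17 for *PHO5*, -1.59 for *PHO12*, -1.38 for *VTC3* and -1.14 for *SPL2*, log2), none stayed called lower without H, and *SPL2* was then called higher (1.28). These genes were named after their values were seen.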
